A study of Mus musculus with 6 samples.

Results

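The 44 genes described here encode enzymes that make, use and recycle glutathione, the thioredoxin and peroxiredoxin system, and superoxide dismutases and catalase. They also encode enzymes of quinones, carbonyls and related compounds, enzymes of the pentose phosphate pathway and NADPH supply, and 2 stress adaptors. They were chosen by name, and all 44 of 44 were found among the 24033 genes that have a probe set with exactly 1 symbol, each on 1 probe set. In cells given an siRNA against COUP-TFII, 13 of the 44 transcripts were called lower than in control cells and 0 higher, whereas 2.92% of all probe sets with a gene symbol were called lower. The largest falls were those of Nqo1, to 58.2% of the control level, and Cbr3, to 60.9%, both reductases of quinones or carbonyls. In the quinone and carbonyl group, which also takes in the epoxide hydrolase gene Ephx1 and the pirin gene Pir, 5 of 7 fell. Of the thioredoxin genes 1 of 12 fell. The groups were not tested against each other.

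The samples were MA-10 cells, a steroid-producing line derived from a mouse Leydig cell tumour, at 48 h of transient transfection. The COUP-TFII siRNA group (n = 3) received siRNA directed at COUP-TFII, the orphan nuclear receptor that Nr2f2 encodes, and the control siRNA group (n = 3) received a control siRNA. The labels call the 3 samples of each group biological replicates and say no more of them, so p-values measure the spread between these samples. Both groups were grown in the same medium with horse serum on gelatin-coated plates, and total RNA was read on Affymetrix arrays as normalized log2 expression, so that a difference of 1 is a doubling.

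Glutathione is a small thiol peptide that is built from glutamate, cysteine and glycine. It is a substrate of transferases, and it hands electrons to peroxidases. Thioredoxin hands electrons to peroxiredoxins. Once oxidised, glutathione and thioredoxin are returned to their reduced form by reductases that use NADPH, most of it from the pentose phosphate pathway. Many of these genes are known targets of NRF2, a transcription factor that binds antioxidant response elements in their promoters. Leydig cells produce reactive oxygen as a by-product of cytochrome P450 steps in steroid synthesis, and these enzymes are known to limit it.

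Nr2f2 itself read 8.25, 8.42 and 8.56 on the COUP-TFII siRNA arrays, against 8.98, 8.97 and 9.19 on the control arrays. No knockdown array reached a control array, and the transcript fell to 64.4% of control (log2 change -0.63, SE 0.09, limma adjusted p = 0.00802), so the knockdown was partial. Array medians lay between 7.56 and 7.60. Of the Leydig cell markers measured, 5 of 7 were called lower and 0 higher, beside 2.92% and 1.59% of all probe sets with a gene symbol. Their mean levels ran from 7.49 to 12.4 in COUP-TFII siRNA cells and from 8.47 to 12.9 in control cells. The Leydig markers not called were Cyp17a1, with a difference of 0.34 (SE 0.13, limma adjusted p = 0.201), and Nr5a1, with -0.02 (SE 0.05). Of the 23 markers of Sertoli, germ, macrophage, peritubular and endothelial cells, 1 was called lower (the germ cell gene Ddx4, log2 change -0.32) and 0 higher. That is near the 2.92% and 1.59% of all probe sets and is no result about these markers. Their mean levels ran from 4.94 to 11.5 in COUP-TFII siRNA cells and from 4.91 to 11.6 in control cells. The brightest of these was the endothelial gene Cdh5. In bulk RNA, fewer cells with a transcript and less of it per cell cannot be told apart, and the part of these marker changes in the results below was not tested.

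Over all 26836 probe sets with a gene symbol, 2.92% were called lower and 1.59% higher, 4.51% in all, at a limma adjusted p under 0.05, adjusted over all of them, whereas 13 of the 44 members, or 29.5%, were called lower and 0 higher. That count was 5 without control replicate 3 or COUP-TFII siRNA replicate 2, and 7 without COUP-TFII siRNA replicate 1 or 3. It was 8 without control replicate 2 and 9 without control replicate 1. With 1 array left out, 0.783% to 1.93% of all probe sets were called lower. At an unadjusted limma p under 0.05, 26 members were lower and 1 was higher, against 9.86% and 9.42% of all probe sets. Probe sets of the members were brighter than most, and brighter probe sets were called more often. Among the 6709 brightest probe sets, 10 of 32 members were called lower, against 5.19% of all probe sets there. Among the next 6709, 3 of 10 members were, against 5.54% of all. The median change of the members was -0.16 on the log2 scale, or 89.6% of control, whereas that of all 24033 genes was 0.01. A difference below 0 was seen in 39 of 44 members and in 43.7% of all probe sets. All 3 COUP-TFII siRNA arrays lay below all 3 control arrays in 26 members and above them in 1, against 12.2% and 13.0% of all probe sets. The members had been picked with earlier results of these data known, so these counts describe them and are not independent support.

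**Figure D1:**
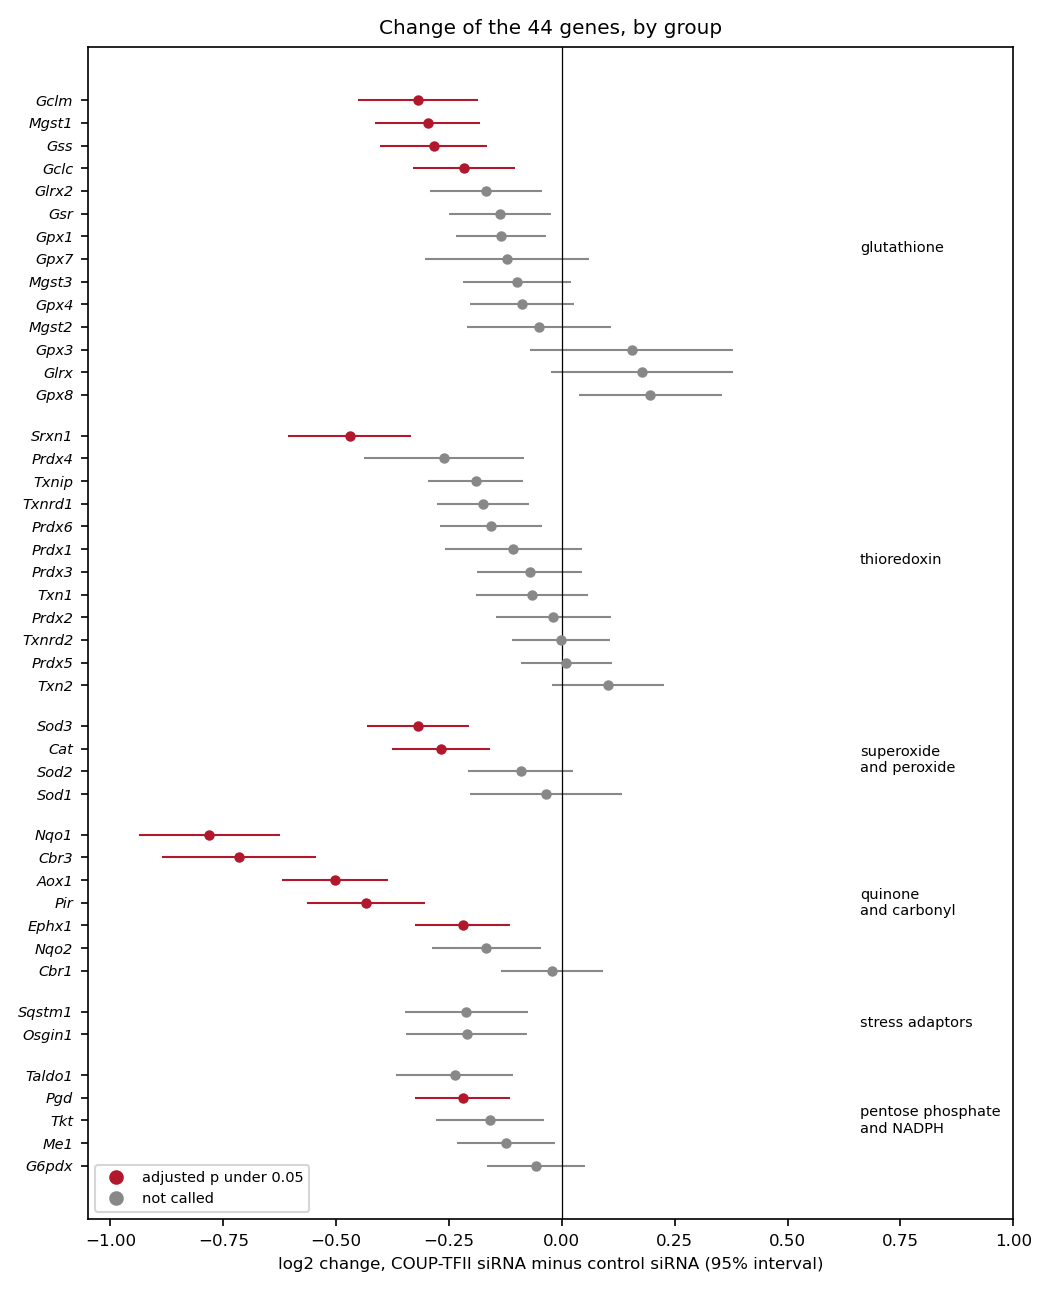
Log2 change (COUP-TFII siRNA minus control siRNA, x axis) of the 44 genes, with 95% intervals from limma, in rows by functional group. The 13 red points passed an adjusted p of 0.05 and all lie left of 0, led by Nqo1 at -0.78 and Cbr3 at -0.72, while the highest point, Gpx8 at 0.20, was not called.

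Enzymes that reduce or oxidise quinones and carbonyls held the 3 largest falls of the 44. Nqo1, a quinone reductase that uses NADPH or NADH and is a standard NRF2 target, read 9.06, 9.02 and 9.07 on the COUP-TFII siRNA arrays, against 9.69, 9.96 and 9.84 on the control arrays. Every knockdown array lay below every control array, and the control arrays were the more spread out. Nqo1 changed by -0.78 (SE 0.07, limma adjusted p = 0.00135) and ranked 18th lowest of the 24033 genes, and the deposited annotation places it in chromosome band 8 D3. Cbr3, an NADPH-dependent carbonyl reductase, read 9.70, 9.68 and 9.55 in COUP-TFII siRNA cells, against 10.25, 10.51 and 10.32 in control cells. No knockdown array reached any control array, and the change was -0.72 (SE 0.08, adjusted p = 0.00293).

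Aox1, an aldehyde oxidase, read 9.32, 9.25 and 9.24 in COUP-TFII siRNA cells and 9.83, 9.78 and 9.71 in control cells. It fell to 70.6% of control (log2 change -0.50, SE 0.05), with less spread in either group than Nqo1 showed in control cells. Pir encodes pirin, an iron-binding nuclear protein that can oxidise quercetin. Its probe set read 10.65, 10.52 and 10.69 after COUP-TFII siRNA, against 11.04, 11.03 and 11.10 after control siRNA, a change of -0.43 (SE 0.06). Ephx1, the microsomal epoxide hydrolase, read 11.93, 11.90 and 11.92 in COUP-TFII siRNA cells, against 12.11, 12.19 and 12.11 in control cells. The groups of Ephx1 were separate, with a smaller change of -0.22 (SE 0.05, adjusted p = 0.0358). Nqo1, Cbr3, Aox1 and Pir kept their call when any 1 of the 6 arrays was left out (highest adjusted p 0.0319, for Pir), whereas Ephx1 missed it whichever array was left out, with adjusted p between 0.0671 and 0.130.

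The remaining members of this group are close relatives of the genes that fell. Nqo2, a quinone reductase that takes electrons from dihydronicotinamide riboside, read 11.74, 11.76 and 11.86 in COUP-TFII siRNA cells and 11.90, 11.98 and 11.99 in control cells, and was not called (difference -0.17, SE 0.05, adjusted p = 0.122). Cbr1 lies in the same chromosome band as Cbr3 (chromosome 16, band C4), yet it read 9.66, 9.54 and 9.60 in COUP-TFII siRNA cells, against 9.60, 9.63 and 9.63 in control cells. These groups overlapped, and the difference of Cbr1 was -0.02 (95% interval -0.14 to 0.09). The difference of Cbr3 minus that of Cbr1 was -0.69, and the difference of Nqo1 minus that of Nqo2 was -0.61. Each of these had an exact 2-sided permutation p of 0.1, which is the smallest that 3 against 3 arrays can give (0.114 adjusted over the 8 such comparisons made). The pairs were chosen after the values had been seen, so these are descriptions, and whether the probes of close relatives or pseudogenes cross-hybridise was not tested.

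**Figure D2:**
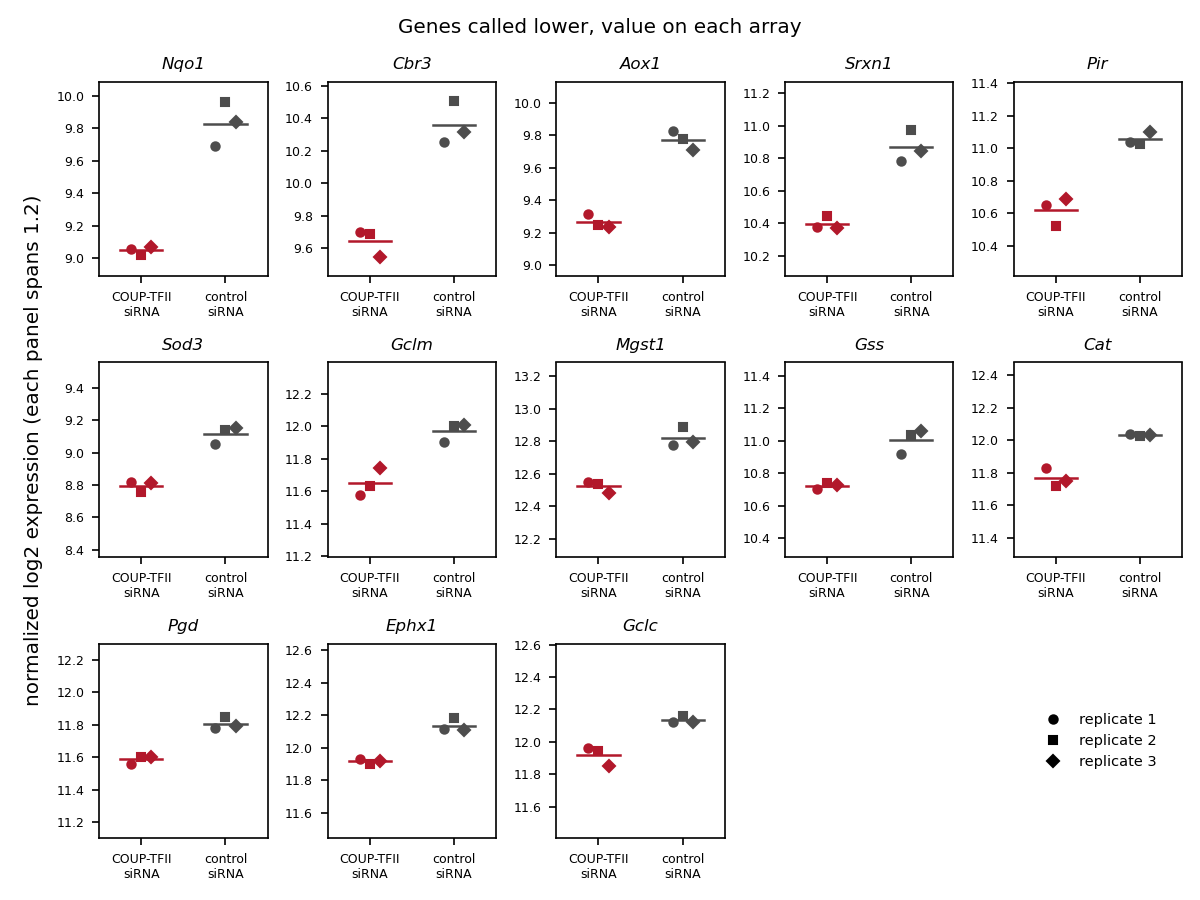
Normalized log2 expression (y axis, each panel spanning 1.2) of the 13 genes called lower on each of the 6 arrays, COUP-TFII siRNA in red on the left and control siRNA in grey on the right, with marker shapes for replicates and lines for group means. In every panel the red points lie below the grey ones, with the widest gap in Nqo1 and narrow ones in Gclc and Gclm.

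Transcripts for each step of glutathione synthesis fell. By the deposited annotation, Gclm lies in chromosome band 3 H1, Gclc in 9 D and Gss in 2 H1, the band that also holds Srxn1. Gclc and Gclm encode the catalytic and the modifier subunit of glutamate-cysteine ligase, the rate-limiting enzyme, and Gss encodes glutathione synthetase, which adds glycine. Gclm read 11.58, 11.63 and 11.74 in COUP-TFII siRNA cells, against 11.90, 11.999 and 12.01 in control cells. Gclc read 11.96, 11.94 and 11.85 in COUP-TFII siRNA cells, against 12.12, 12.16 and 12.12 in control cells. Neither gene had overlapping groups. Gclm fell to 80.2% of control (log2 change -0.32, SE 0.06, adjusted p = 0.0221) and Gclc to 86.0% (log2 change -0.22, SE 0.05, adjusted p = 0.0460), and the difference between these 2 changes, -0.10, was within the spread of the arrays (exact permutation p = 0.4). Gss read 10.70, 10.74 and 10.73 in COUP-TFII siRNA cells, against 10.92, 11.04 and 11.06 in control cells. It was lower on every knockdown array (log2 change -0.28, SE 0.05, adjusted p = 0.0222).

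Mgst1, a membrane-bound glutathione transferase with peroxidase activity, was the other call among the 14 glutathione genes. Its probe set read 12.55, 12.54 and 12.48 in COUP-TFII siRNA cells, against 12.78, 12.89 and 12.79 in control cells, a change of -0.30 (SE 0.05). Its relatives Mgst2 and Mgst3 differed by -0.05 (SE 0.07) and -0.10 (SE 0.05) and were not called. In all, 4 of the 14 glutathione genes were called lower, beside 2.92% of all probe sets. These 4 calls were each lost when single arrays were left out. The adjusted p was then 0.0880 to 0.128 for Gclc without any 1 array, and 0.0614 to 0.0954 for Gclm without control replicate 2 or 3 or COUP-TFII siRNA replicate 1 or 2. For Gss it was 0.0612 to 0.0862 without any array but control replicate 1. Mgst1 had 0.0527 to 0.0696 without control replicate 3 or any 1 COUP-TFII siRNA array.

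The other 10 glutathione genes were not called. Gsr, which regenerates reduced glutathione with NADPH, differed by -0.14 (SE 0.05, adjusted p = 0.168), and the mitochondrial and nuclear glutaredoxin gene Glrx2 by -0.17 (SE 0.05, adjusted p = 0.131). Of the glutathione peroxidases, Gpx1 (cytosolic) differed by -0.13 (SE 0.04), Gpx4, which reduces lipid hydroperoxides in membranes, by -0.09 (SE 0.05), and Gpx7 by -0.12 (SE 0.08). Gpx8, a peroxidase of the endoplasmic reticulum, had the highest difference of all 44 members. It read 9.37, 9.37 and 9.60 in COUP-TFII siRNA cells, against 9.19, 9.26 and 9.29 in control cells, so every knockdown array lay above every control array, but the call was missed (difference 0.20, SE 0.07, adjusted p = 0.163). The secreted peroxidase gene Gpx3, on a dim probe set, and the cytosolic glutaredoxin gene Glrx differed by 0.15 (SE 0.10) and 0.18 (SE 0.09), with overlapping arrays.

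In the thioredoxin group 1 of 12 genes was called, beside 2.92% of all probe sets called lower. With 1 call there is too little to set the group apart from that share. The gene called was Srxn1. It encodes sulfiredoxin, which restores peroxiredoxins that have been over-oxidised, and it read 10.38, 10.44 and 10.37 in COUP-TFII siRNA cells, against 10.78, 10.97 and 10.84 in control cells. The groups were separate, Srxn1 fell to 72.2% of control (log2 change -0.47, SE 0.06, adjusted p = 0.00556), and the call held without any 1 array (highest adjusted p 0.0300). Among its substrates, the peroxiredoxin gene with the largest difference was Prdx4, of the endoplasmic reticulum, which read 9.71, 9.64 and 9.70 in COUP-TFII siRNA cells, against 9.83, 10.13 and 9.88 in control cells. Prdx4 differed by -0.26 (SE 0.08, adjusted p = 0.105), and control replicate 2 stood above the other control arrays. The remaining peroxiredoxin genes, Prdx1, Prdx2, Prdx3, Prdx5 and Prdx6, differed by between -0.16 and 0.01 and were not called.

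Txnrd1, the cytosolic thioredoxin reductase, differed by -0.18 (SE 0.04, adjusted p = 0.0656), and Txnip, which binds and inhibits thioredoxin, by -0.19 (SE 0.05, adjusted p = 0.0569). Both had separate groups and stood just outside the threshold. Txn1, cytosolic thioredoxin, differed by -0.07 (95% interval -0.19 to 0.06). The mitochondrial counterparts Txn2 and Txnrd2 differed by 0.10 (SE 0.05) and by -0.00 (95% interval -0.11 to 0.11).

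Among enzymes that act on superoxide and hydrogen peroxide, Sod3 and Cat fell while Sod1 and Sod2 were not called. Sod3, the secreted superoxide dismutase, read 8.82, 8.76 and 8.81 in COUP-TFII siRNA cells, against 9.05, 9.14 and 9.15 in control cells. Cat, the catalase of peroxisomes, read 11.83, 11.72 and 11.75 in COUP-TFII siRNA cells, against 12.04, 12.03 and 12.04 in control cells, where the arrays hardly differed. Both genes were separate between the groups, Sod3 at 80.2% of control (log2 change -0.32, SE 0.05, adjusted p = 0.0116) and Cat at 83.1% (log2 change -0.27, SE 0.05, adjusted p = 0.0201). Sod3 missed the threshold without control replicate 3 or COUP-TFII siRNA replicate 2 (adjusted p 0.0514 and 0.0651). Cat missed it without control replicate 1 or 3 or COUP-TFII siRNA replicate 2 or 3 (0.0535 to 0.0901). Sod2, the mitochondrial superoxide dismutase gene, read 11.93, 11.96 and 12.04 in COUP-TFII siRNA cells and 12.02, 12.11 and 12.07 in control cells (difference -0.09, SE 0.05), and the cytosolic Sod1 differed by -0.04 (95% interval -0.20 to 0.13).

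All 5 genes of the pentose phosphate and NADPH group had differences below 0, as had 43.7% of all probe sets. Pgd was the 1 that was called, beside 2.92% of all probe sets called lower. With 1 call there is too little to set the group apart from that share. Pgd encodes 6-phosphogluconate dehydrogenase, an NADPH-producing step of the oxidative pentose phosphate branch, and read 11.56, 11.60 and 11.60 in COUP-TFII siRNA cells, against 11.78, 11.85 and 11.79 in control cells. Its change was -0.22 (SE 0.05, adjusted p = 0.0346), and adjusted p was 0.0638 to 0.125 without any 1 array. G6pdx, whose enzyme catalyses the NADPH-producing entry step of the same branch, differed by -0.06 (95% interval -0.17 to 0.05), with overlapping arrays. Of the non-oxidative branch, Taldo1 (transaldolase) read 9.14, 9.32 and 9.27 in COUP-TFII siRNA cells, against 9.44, 9.48 and 9.51 in control cells, and missed the threshold with a difference of -0.24 (SE 0.06, adjusted p = 0.0537). Tkt (transketolase) differed by -0.16 (SE 0.05) and malic enzyme, Me1, which makes NADPH from malate, by -0.12 (SE 0.05), both with separate groups and neither called.

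Sqstm1 and Osgin1 completed the list. Sqstm1, the autophagy receptor p62, which also binds the NRF2 inhibitor KEAP1, read 12.46, 12.28 and 12.36 in COUP-TFII siRNA cells, against 12.63, 12.60 and 12.51 in control cells. The groups did not overlap, but the difference of -0.21 (SE 0.06) was not called (adjusted p = 0.0887). Osgin1, an oxidative stress-induced growth inhibitor, likewise differed by -0.21 (SE 0.06, adjusted p = 0.0860). In all, 13 members were lower on every knockdown array without being called, with differences from -0.26 to -0.12 and adjusted p from 0.0537 to 0.201. Of all probe sets, called or not, 12.2% were lower on every knockdown array.

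Set side by side, the median change was -0.43 for the 7 quinone and carbonyl genes (74.0% of control), -0.18 for the 4 superoxide and peroxide genes, -0.16 for the 5 pentose phosphate and NADPH genes, -0.13 for the 14 glutathione genes and -0.09 for the 12 thioredoxin genes. It was -0.21 for the 2 stress adaptors. None of these groups held a gene that was called higher. On single arrays, the median deviation of the quinone and carbonyl genes from their control means was -0.40, -0.52 and -0.37 in COUP-TFII siRNA cells and -0.02, 0.02 and 0.01 in control cells. For the thioredoxin genes it was -0.11, -0.10 and -0.09 in COUP-TFII siRNA cells, against -0.04, 0.07 and -0.01 in control cells. The knockdown arrays lay below the control arrays in both of these groups.

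**Figure D3:**
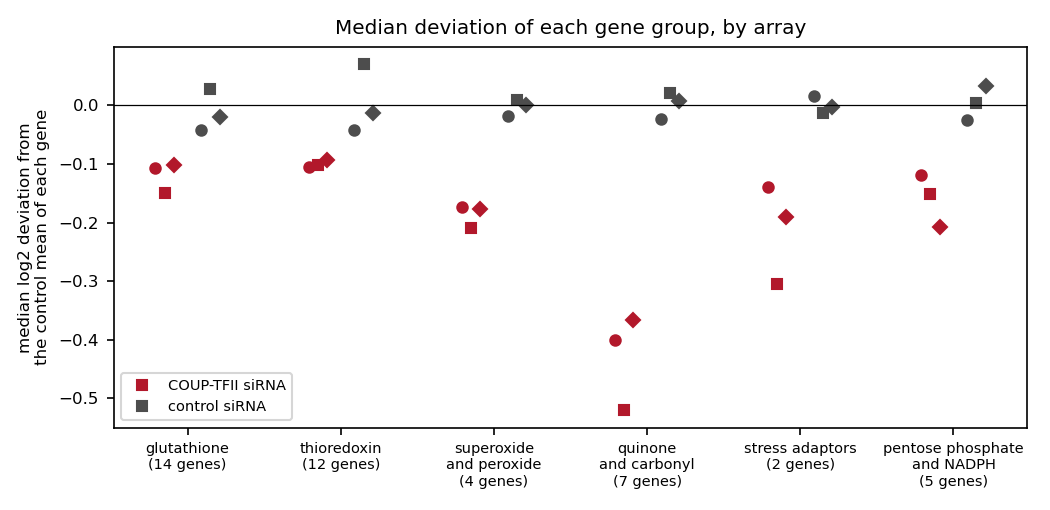
Median log2 deviation of the genes of each group from each gene's control mean (y axis), on each COUP-TFII siRNA array (red, left) and each control array (grey, right), with marker shapes for replicates 1, 2 and 3. The red points of the quinone and carbonyl group lie at -0.40, -0.52 and -0.37, those of the thioredoxin group near -0.10.

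Promoters of called members are shown because many of these genes are known to be bound by NRF2 through the antioxidant response element. The core of that element was searched as TGACNNNGC on both strands, in RefSeq windows from 250 bases before to 50 after each annotated start (GRCm38.p6). Windows were found for 40 of the 44 members, 11 of them called. A gene was counted if any of its windows matched. The 40 members had 53 windows, and the 27025 genes with a window had 32851. The core was found for 10 of the 40 members (25%) and for 5 of the 11 called ones (45.5%), against 14.0% of the 27025 genes. The 4 called members with the smallest p that hold it are printed 5′ to 3′ on the strand of the gene, with the core in capitals. In all 4 the match is on the opposite strand, so the capitals are the reverse complement of the searched letters.
Srxn1 (chr2:152105531-152105560, + strand): cgccacggcgggcagtgggcaGCTAGGTCA
Pir (chrX:164269181-164269285, + strand): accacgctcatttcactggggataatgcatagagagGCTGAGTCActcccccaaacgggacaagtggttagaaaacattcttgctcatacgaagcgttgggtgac
Mgst1 (chr6:138140411-138140526, + strand): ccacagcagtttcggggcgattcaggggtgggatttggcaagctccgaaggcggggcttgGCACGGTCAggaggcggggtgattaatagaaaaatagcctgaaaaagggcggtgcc
Gclm (chr3:122245363-122245491, + strand): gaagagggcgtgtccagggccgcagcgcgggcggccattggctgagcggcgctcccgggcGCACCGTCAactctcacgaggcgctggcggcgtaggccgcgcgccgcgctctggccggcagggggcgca

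Counted from the annotated start, the printed match begins at base -214 in Pir, -56 in Mgst1, -134 in Gclm and 29 in Srxn1. Pir holds a further match that begins at base 20 after its start, and Pgd, which was also called, holds one at base 4 after it. Prdx1, Me1, Txnrd1, Sod1 and G6pdx were not called and hold the core too. No match was found for Nqo1 or Cbr3, which says nothing of sites farther away. Of the 13 called members, 11 had a window. The half-site of nuclear receptors, AGGTCA, was searched likewise and was found for 8 of the 40 members (20%), 3 of them called (Srxn1, Cat and Gss), against 18.1% of all genes with a window. In Srxn1 the match after the start overlaps the printed core. These are matches of letters, without any measurement of binding.

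Of 83 measured genes of the same pathways outside the 44, 17 were called lower and 2 higher, and 53 lay below 0, beside 2.92% lower, 1.59% higher and 43.7% below 0 among all probe sets. These lists too were chosen with earlier results known. Among 15 genes of NRF2 control and further NRF2 targets, 7 fell and 0 rose, with a median change of -0.20. The glutathione transferase gene Gsta3 changed by -1.02 (SE 0.05), heme oxygenase Hmox1 by -0.81 (SE 0.06), Gsta2 by -0.72 (SE 0.06), Gsta4 by -0.66 (SE 0.09) and the biliverdin reductase gene Blvrb by -0.54 (SE 0.06). Nfe2l2, which encodes NRF2, was not called (difference -0.15, SE 0.05, adjusted p = 0.126), nor was Keap1, its inhibitor (difference -0.05, SE 0.05, adjusted p = 0.608). Both had separate groups, as had 12.2% of all probe sets in this direction. The heme transporter gene Slc48a1 and the aldo-keto reductase gene Akr1b8 also fell, by 0.25 (SE 0.05) and by 0.24 (SE 0.05), but their adjusted p was 0.0515 to 0.105 and 0.0591 to 0.161 without any 1 array.

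Glutathione turnover outside the 44 had 4 falls and 0 rises among 23 genes, beside 2.92% lower and 1.59% higher among all probe sets. The median change of these 23 genes was -0.00429. The cystine importer Slc7a11, which supplies cysteine for glutathione, changed by -0.83 (SE 0.09, adjusted p = 0.00320), whereas its partner chain Slc3a2, at 0.19 above control (SE 0.05), missed the threshold (adjusted p = 0.0634). Glo1 and Hagh, which use glutathione to detoxify methylglyoxal, changed by -0.28 (SE 0.06) and -0.38 (SE 0.06), and a second probe set of Glo1 by -0.31 (SE 0.05). Esd, which hydrolyses formylglutathione, changed by -0.26 (SE 0.05). Adjusted p passed 0.05 for Hagh when COUP-TFII siRNA replicate 2 was left out (0.0528), for Esd without any 1 array (0.0521 to 0.0958) and for Glo1 without any array but COUP-TFII siRNA replicate 3 (0.0571 to 0.138).

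Among 25 further thioredoxin and selenium genes, 5 fell and 1 rose, beside 2.92% lower and 1.59% higher among all probe sets. The 1 rise is near that share. Txndc12, a thioredoxin-like protein of the endoplasmic reticulum, changed by -0.74 (SE 0.06, adjusted p = 0.00132). Smaller falls were seen for Sephs1 and Sephs2, related to selenophosphate synthesis, by 0.27 (SE 0.05) each, for Selenop, the selenium carrier, by 0.25 (SE 0.05), and for the methionine sulfoxide reductase Msrb1, by 0.20 (SE 0.04), while its relative Msrb3 rose by 0.26 (SE 0.05). Adjusted p for Selenop, Msrb1 and Msrb3 lay between 0.0507 and 0.144 whichever array was left out. For Sephs1 it was 0.0512 to 0.0924 without any array but COUP-TFII siRNA replicate 3, and for Sephs2 0.0554 to 0.0986 without control replicate 2 or 3 or COUP-TFII siRNA replicate 1 or 2. Of 20 other genes of NADPH supply, 1 was called lower and 1 higher, which is near the shares of all probe sets and is no result about that list. They were Aldh1l1, at -0.31 (SE 0.07), and Aldh1l2, at 0.39 (SE 0.08). These are the cytosolic and the mitochondrial folate dehydrogenase, and both missed the threshold without any array but control replicate 2 (adjusted p 0.0631 to 0.123 for Aldh1l1 and 0.0552 to 0.102 for Aldh1l2).

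**Figure D4:**
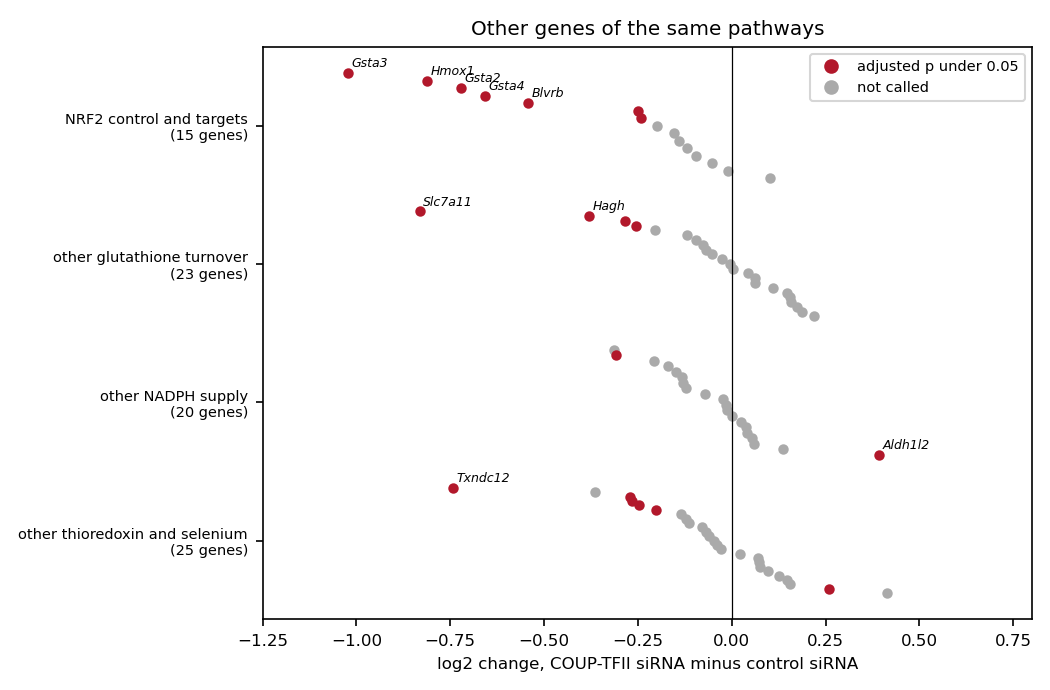
Log2 change (COUP-TFII siRNA minus control siRNA, x axis) of 83 other genes of these pathways in 4 lists, 1 point a gene, red where the adjusted p was under 0.05. Gsta3 at -1.02, Slc7a11 at -0.83 and Hmox1 at -0.81 lie farthest left, and Aldh1l2 at 0.39 is the highest called point.

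In the authors' deposited table of changed probe sets, which lists 334, 5 of the members appear: Nqo1, Cbr3, Srxn1, Aox1 and Pir. The ratios in the authors' deposited table were 0.594 for Nqo1, 0.605 for Cbr3, 0.696 for Srxn1, 0.699 for Aox1 and 0.727 for Pir. These are the same 5 members whose calls held in all 15 alternative settings tried here. Every fold in the authors' deposited table is at least 1.3, a size that the other 8 called members did not reach here.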

How the data were processed

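The authors deposited normalized log2 expression for 35556 probe sets on 6 arrays, a scale inferred from the values and the deposited ratios. The submitters' processing notes name Partek 7.0. How background, summarisation and normalization were handled is not given in the sources used here. The deposited tables of the authors give a linear ratio and an unadjusted p-value per probe set, and the annotation, whose symbols named 26836 probe sets. No scanner files were used, so the number of arrays sets the precision.

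The 26836 probe sets were fitted with limma 3.58.1 (lmFit, eBayes) in R 4.3.3, with group as the only term and Benjamini-Hochberg adjustment over all of them, and called at 0.05, whatever the fold. Differences were taken as COUP-TFII siRNA minus control, with moderated standard errors (SE), and intervals are 95%. A gene stood for its brightest probe set with exactly 1 symbol. The fit was tested on simulated data. Members and lists were chosen with earlier results of these data known. The text names all members, and the called genes of 4 pathway lists. Alternatives were other normalizations, filters, priors, weights and probe set choices, a replicate block, and leaving out each array. Promoter windows are from RefSeq (GRCm38.p6). Protein sequences were not used here.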

Additional observations from a re-analysis of the deposited data

How the results depend on the processing

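The members were recomputed under 15 alternatives, all 44 in each except among the brighter probe sets, which left out Gpx3 and Mgst2 and held 42. The number called higher was 0 in all of them, and 37 to 40 members lay below 0. Of 658 results of single members, 572 kept direction and side of the threshold, 48 called falls missed it, 29 uncalled changes passed it and 9 changed sign. The number called lower, 13 as reported, was 5 to 9 with 1 array left out (0.783% to 1.93% of all probe sets), 6 with all 35556 probe sets tested, and 24 both among the brighter probe sets alone and where the prior followed intensity, settings in which 10.8% and 4.91% of the probe sets tested were called lower. The counts of 5 to 9 and of 6 came with fewer arrays or more probe sets tested, and why they were lower was not tested. The count was 16 after median centring and with array weights, settings in which 4.41% and 3.86% of all probe sets were called lower. With all 35556 probe sets tested, 0.818% of them were called lower. Nqo1, Cbr3, Aox1, Srxn1 and Pir were called in every setting. The median change of members was -0.18 to -0.14 with 1 array left out and -0.19 after centring each array on its median. Minus the median of all features it was -0.19 to -0.14 in every setting.

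Sign changes were confined to 6 members that were not called in the main setting. Prdx5 was -0.0202 after median centring. With 1 array left out, Prdx5 ranged between -0.00122 and 0.0249, Mgst2 between -0.0859 and 0.0223, Sod1 between -0.0958 and 0.0448, Prdx2 between -0.0557 and 0.0189, Txnrd2 between -0.0224 and 0.0223, and Cbr1 between -0.0547 and 0.00875. The cause was not tested. With the replicate number as a block, 9 members were called lower and 0 higher, beside 1.80% and 0.846% of all probe sets. Gclc (limma adjusted p = 0.0776), Cat (0.0506), Ephx1 (0.0770) and Pgd (0.0652) missed the threshold there. Deviations of arrays with the same number correlated at 0.067, 0.001 and 0.071 across probe sets, and not every array correlated best with its own number, so the numbers were not taken as pairs.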
